A study of Rattus norvegicus with 46 samples.

Results

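The subacromial bursa of rats was compared between 14 days and 3 days after the supraspinatus tendon had been cut (tenotomy) with the bursa left in place. The comparison holds 12 of the 46 RNA-seq libraries of the series: 6 labelled as bursa activated by tenotomy at day 14 and 6 so labelled at day 3, chosen by label alone. The other libraries used here are 5 bursae of non-operated rats, as the uninjured level, and 6 day 14 and 6 day 3 supraspinatus tendons of shoulders that kept the bursa, as the tissue below. Each library is polyadenylated RNA of dissected tissue, and values are estimated transcript counts summed per gene symbol and given as counts per M counts (CPM, where M is 1000000) after scaling. Strain, sex and age are not given in the labels, nor is the rat from which each library came, so p-values treat libraries as independent and measure the spread between libraries.

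The bursa is a thin sac between the rotator cuff and the acromion, lined by synovial cells over loose connective tissue with fat, vessels and nerves. In healing connective tissue, inflammatory cells enter first and resident fibroblasts and macrophages divide. Matrix synthesis and remodelling, lymphocyte entry and a return of resting cell states follow over the next weeks. Procollagen is folded and hydroxylated inside the cell by a set of chaperones and enzymes before it is secreted, so the collagen messages and those of the folding machinery can be read separately.

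Library totals were 69.9 M counts in day 14 replicate 6, 12.5 to 22.6 M in the other day 14 libraries and 13.4 to 19.5 M at day 3. Mitochondrial messages held 11.3 to 22.8% of counts at day 14 and 12.6 to 29.1% at day 3 (16.7 ± 5.06% and 17.7 ± 6.199%, SD, n = 6 each, two-sided exact permutation p = 0.766). Day 3 replicate 5, the library with 29.1%, stood between the groups on the first principal component, at 0.80, where the other day 3 libraries lay at 33.1 to 57.0 and the day 14 libraries at -45.1 to -27.9. Day 14 replicate 6 stood apart in the interferon genes described below, and day 3 replicate 1 in genes of growing muscle. Synovial markers Htra1 (251 to 485 CPM at day 14 and 290.0 to 354 CPM at day 3) and Clic5 (97.2 to 136 CPM and 45.5 to 104 CPM) and the fibroblast marker Dcn (1728 to 2659 CPM and 1235 to 1735 CPM) were present in each of the 12 libraries. The muscle enzyme Ckm was also present, at 248 to 1931 CPM at day 14 and 0.589 to 1903 CPM at day 3. Plin1 of fat cells and Hba-a1 of red cells were in each of the 12 libraries as well. So were the tendon markers Tnmd and Thbs4. Tnmd had 8.05 to 136 CPM at day 14 and 4.56 to 22.6 CPM at day 3. Thbs4 had 76.9 to 640 CPM and 252 to 486 CPM on those days. The tendon cell list summed to 251 to 1504 CPM at day 14 and 397 to 690 CPM at day 3. Of its 10 tested genes Cilp2 and Tnmd rose (0 to 3 as single libraries were left out). The part of tendon tissue in the other results was not tested.

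Of 16416 features tested with edgeR's quasi-likelihood test, 3550 (21.6%) passed a Benjamini-Hochberg adjusted p of 0.05. At day 14, 1544 features (9.41%) were higher and 2006 (12.2%) were lower than at day 3, and 550 and 567 of these differed by more than 2-fold. The 9.41% higher and 12.2% lower are the shares against which each list count below is to be read, also where they are not repeated. In 2380 features (14.5%) the 6 day 14 and the 6 day 3 libraries did not overlap in CPM. The median log2 fold change of day 14 over day 3 over all tested features was 0.015. The 15 genes with the lowest fold change were taken among called, non-overlapping genes with a mean of at least 10 CPM. They were the cell division genes Ccna2, Ccnb1, Kif20a, Top2a, Cenpf, Tpx2, Cenpe, Kif11, Kif23, Mki67, Tk1, Kif22 and Prc1, with LOC100359539 and AABR07000658.2. The 15 with the highest were Zbtb16, Dact2, Myoc, Col6a6, LOC103690116, Gbp6, Ppl, Ccl24, Gsn, Sytl5, Smpd3, Sema3d, Cytl1, Igfbp5 and Efhd1. Leaving out day 14 replicate 6 and day 3 replicate 5 together gave 1452 higher and 1899 lower features.

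**Figure D1:**
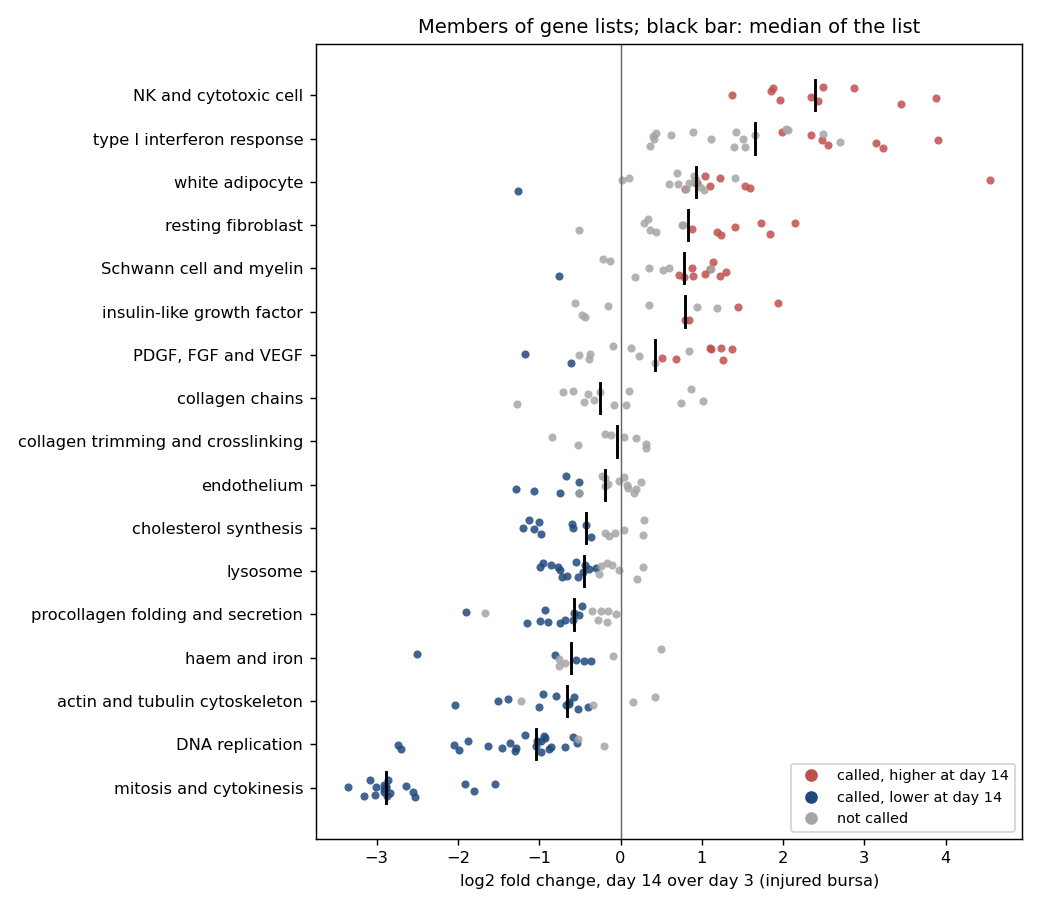
Log2 fold change of day 14 over day 3 in injured bursa for each tested member of 17 gene lists, one dot per gene, with a black bar at the list's median. Red dots passed the test and were higher at day 14, blue dots passed and were lower, and grey dots did not pass. The median of the mitosis list (-2.88) lies farthest to the left and that of the cytotoxic lymphocyte list (2.39) farthest to the right. No member of the collagen chain list passed the test.

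All 19 tested members of the mitosis and cytokinesis list fell, with a median log2 change of -2.88, and 22 of 24 DNA replication genes fell, with a median of -1.04, against 12.2% of all features. Both counts stayed at 19 and 22 as each of the 12 libraries was left out in turn. In bulk tissue, fewer cells of a type and less RNA of it per cell cannot be told apart. The lowest, median and highest values of Ccnb1, the cyclin that drives entry into mitosis, were 1.43, 2.23 and 2.53 CPM at day 14, against 7.94, 16.7 and 26.2 CPM at day 3. The 2 groups lay far apart, and the uninjured bursae were lower still, at 0.627 to 1.398 CPM. Ccnb1 fell by 3.08 on the log2 scale (SE 0.26, edgeR adjusted p = 2.45e-06).

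The mitotic kinase Plk1 stood at 1.38, 1.49 and 2.45 CPM at day 14, against 8.34, 16.96 and 23.9 CPM at day 3 (log2 change -3.35 ± 0.26, edgeR adjusted p = 9.30e-07). Cenpa, the centromeric histone, had 0.592 to 1.38 CPM at day 14 and 3.10 to 11.1 CPM at day 3. In both genes the lowest day 3 library was replicate 5, and it still exceeded each day 14 library. Day 14 replicate 4 was the highest of its group in Plk1 and in several other mitotic genes.

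To show what the promoters of these genes hold, 300 bases (250 before and 50 after the start of the gene, RefSeq, build GRCr8) were searched on both strands for TTTGAA, the cell cycle homology region (CHR), and for CCAAT, the box bound by NF-Y. Of the 24 mitosis genes 22 had a promoter in the table. TTTGAA was in 16 of these 22 (72.7%) and in 18.1% of all 27457 promoters. CCAAT was in 15 of 22 (68.2%) and in 37.7% of all, and both were in 11 of 22 and in 7.25% of all. Of the 22 DNA replication genes with a promoter, 3 (13.6%) held TTTGAA and 14 (63.6%) held CCAAT. Among the other lists searched, 9 of 11 cholesterol synthesis promoters (81.8%) held CCAAT. Plk1 (chr1:186147408-186147707, plus strand) and Cenpa (chr6:31431503-31431802, minus strand) are shown as promoters that hold both, and Ccnb1 (chr2:33655176-33655475, minus strand) as one that holds CCAAT 2 times and TTTGAA nowhere in this window. Capitals mark the matches, on either strand, so CCAAT on the other strand reads ATTGG.
Plk1: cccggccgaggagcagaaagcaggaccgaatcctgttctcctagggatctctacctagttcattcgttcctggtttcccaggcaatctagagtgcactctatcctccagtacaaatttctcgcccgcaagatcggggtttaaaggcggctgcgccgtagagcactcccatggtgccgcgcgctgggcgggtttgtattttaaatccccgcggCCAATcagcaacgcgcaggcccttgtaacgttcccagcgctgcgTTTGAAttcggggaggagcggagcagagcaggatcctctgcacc
Cenpa: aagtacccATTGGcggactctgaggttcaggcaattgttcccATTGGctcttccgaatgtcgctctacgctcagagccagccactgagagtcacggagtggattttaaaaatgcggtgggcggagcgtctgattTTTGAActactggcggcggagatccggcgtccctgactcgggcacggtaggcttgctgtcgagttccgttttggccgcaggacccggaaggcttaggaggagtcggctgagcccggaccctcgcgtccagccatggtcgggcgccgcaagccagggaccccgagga
Ccnb1: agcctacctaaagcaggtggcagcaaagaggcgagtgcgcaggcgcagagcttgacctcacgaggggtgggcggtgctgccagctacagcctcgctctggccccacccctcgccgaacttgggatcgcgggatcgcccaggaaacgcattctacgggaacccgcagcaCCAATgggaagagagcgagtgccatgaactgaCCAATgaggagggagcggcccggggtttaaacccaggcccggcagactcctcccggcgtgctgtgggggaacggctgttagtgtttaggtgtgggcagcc

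Of 14 tested regulators of the cycle, 5 fell and none rose: the atypical E2F factors E2f7 and E2f8, the transcription factor Mybl2 and the cyclins E, Ccne1 and Ccne2, which drive entry into S phase. Of these 14, 1 rose without day 14 replicate 6 or day 3 replicate 4 or 6. Mybl2 stood at 0.631 to 1.07 CPM (median 0.737) at day 14, against 4.84 to 13.9 CPM (median 9.40) at day 3 (log2 change -3.55 ± 0.24). The growth phase cyclins Ccnd1, Ccnd2 and Ccnd3 had log2 changes of -0.031, 0.46 and -0.10, none of which passed the test. The inhibitor Cdkn1a had 16.8 to 41.4 CPM at day 14 and 14.7 to 171 CPM at day 3, with overlapping groups and an edgeR adjusted p of 0.222. Cdk1, Aurkb, Ttk, Ndc80, Foxm1 and Myc of the mitosis and regulator lists were not matched to a transcript and are not in the counts above. The authors' deposited table, whose sign runs as day 14 over day 3, gives log2 changes of -3.04 ± 0.26 for Cdk1, -2.03 ± 0.19 for Aurkb, -3.57 ± 0.28 for Ttk, -2.88 ± 0.31 for Ndc80 and -1.89 ± 0.20 for Foxm1 (± SE). For Myc the authors' deposited table gives -0.36 ± 0.26 (adjusted p = 0.296).

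Of 16 tested members of the actin and tubulin list, which serves division and cell movement, 12 fell and none rose (median -0.65). Over all features 12.2% were lower. Without day 3 replicate 1 the count was 8, the lowest when single libraries were left out. Tubb5, a main tubulin of dividing cells, stood at 263 to 297 CPM (median 285) at day 14, against 405 to 666 CPM (median 548) at day 3 (log2 change -0.95 ± 0.12). Stmn1, a microtubule destabiliser, stood at 17.2 to 29.7 CPM (median 19.8) at day 14 and at 46.3 to 74.9 CPM (median 61.1) at day 3. The groups did not overlap in either gene. Tubb6 reached 316 CPM in day 3 replicate 1, against 49.6 to 62.9 CPM at day 14, and its log2 change was -1.38 ± 0.27.

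Collagen chains and the genes that fold procollagen were counted apart. Of 13 tested members of the collagen chain list 0 passed edgeR's test (median log2 change -0.26). Among them 1 had an unadjusted p under 0.05 (Col12a1, named after its value was seen). DESeq2 called 1 lower, and 1 was called lower without day 14 replicate 2. In an edgeR fit of the 12 injured bursae alone 1 chain of the list was called higher and 1 lower. Col6a6 (log2 change 2.39 ± 0.36) and Col22a1 are collagen genes outside this list, and both were called higher. Of 18 procollagen folding genes 11 fell and none rose (median -0.58). Col1a1, the main chain of type I collagen, had 10783, 15194 and 19225 CPM as its lowest, median and highest at day 14, against 14178, 17726 and 27396 CPM at day 3. The groups overlapped, and the log2 change was -0.40 ± 0.51 (edgeR adjusted p = 0.624). Col3a1 of type III collagen had 20492 to 32055 CPM at day 14 and 23041 to 32724 CPM at day 3 (adjusted p = 0.93, edgeR). In uninjured bursa Col1a1 had 169 to 3046 CPM and Col3a1 had 729.7 to 7934 CPM, below each injured library. The lowest uninjured Col1a1 values, 276 and 169 CPM, were in replicates 1 and 2, which had the highest mitochondrial shares.

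Serpinh1, the collagen chaperone HSP47, stood at 834, 915 and 1098 CPM at day 14, against 1201, 2206 and 2689 CPM at day 3. Every day 14 library was below every day 3 library, and the log2 change was -1.15 ± 0.26 (edgeR adjusted p = 0.00502). P3h1, which hydroxylates proline in the collagen chain, fell as well, with 44.2 to 58.7 CPM at day 14 and 67.9 to 129 CPM at day 3. P4hb, a subunit of prolyl 4-hydroxylase, had a log2 change of -0.93 ± 0.17, and Ppib, the cyclophilin of collagen folding, one of -0.57 ± 0.085. The count of falling members was 8 to 12 as single libraries were left out. Among 8 trimming and crosslinking enzymes 0 passed edgeR's test, 0 passed DESeq2 and 1 was called lower in the fit of the 12 injured bursae alone, with a median of -0.04, and 1 (Adamts3) had an unadjusted p under 0.05. Of the list's unmatched members, the authors' deposited table gives -1.42 ± 0.21 for the lysyl oxidase Lox (adjusted p = 3.74e-10), 0.57 ± 0.15 for Adamts2, which trims procollagen (adjusted p = 0.00137), and -0.12 ± 0.21 for Adamts14 (adjusted p = 0.698).

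**Figure D2:**
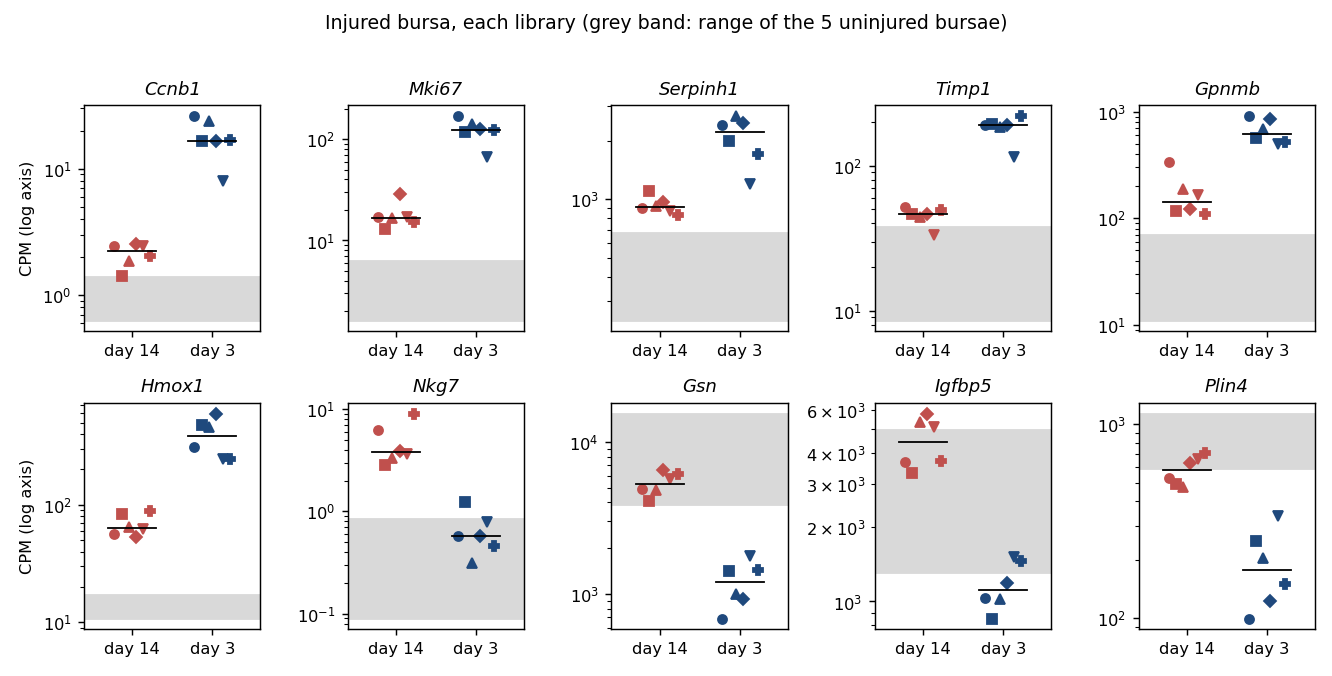
Level in CPM (log axis) of Ccnb1, Mki67, Serpinh1, Timp1, Gpnmb, Hmox1, Nkg7, Gsn, Igfbp5 and Plin4, one panel per gene, with one point per library for day 14 and day 3 injured bursa. Marker shapes are replicates, the black bar is the group median and the grey band is the range of the 5 uninjured bursae. In Ccnb1 the day 14 libraries lie at 1.43 to 2.53 CPM and the day 3 libraries at 7.94 to 26.2 CPM.

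Among 10 protease inhibitors 2 rose and 4 fell, and among 12 ADAMTS family members 3 rose and 5 fell, against 9.41% of all features higher and 12.2% lower. For the inhibitors the fit of the 12 injured bursae alone gave 5 higher and 4 lower. Timp1, an inhibitor induced in injury, stood at 33.05, 46.3 and 51.6 CPM at day 14, against 115, 191 and 221 CPM at day 3 (log2 change -2.02 ± 0.32, edgeR adjusted p = 0.00036). Timp3, the inhibitor that is bound to matrix, was higher at day 14, with 310.1, 377 and 441 CPM at day 14 and 78.8, 139 and 227 CPM at day 3 (log2 change 1.33 ± 0.21). The groups did not overlap in either. Adamts4, an aggrecan-cleaving protease, had 6.51 to 23.03 CPM at day 14 and 25.1 to 79.9 CPM at day 3, where replicate 5 gave the lowest value. Adamts16 rose (log2 change 1.99 ± 0.44). Of 12 tested matrix metalloproteinases Mmp13, a collagenase, and Mmp19 fell and Mmp11 rose, which is near the share over all features. Mmp13 had 0, 0.328 and 0.946 CPM at day 14, against 0.570, 5.81 and 11.4 CPM at day 3 (edgeR adjusted p = 0.0117), with overlapping groups. The rise of Mmp11 was not called without any one of day 14 replicates 3 and 5 and day 3 replicates 4 and 6.

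Elastic fibre genes split by member. Of 17 tested, 4 rose (Efemp1, Mfap2, Ltbp1 and Ltbp4) and Emilin1 and Ltbp2 fell. The falls are near the 12.2% of all features that were lower, and 9.41% were higher. Ltbp4, which anchors latent TGF-beta to elastic fibres, stood at 149 to 247 CPM (median 217) at day 14, against 54.7 to 93.4 CPM (median 76.8) at day 3 (log2 change 1.45 ± 0.28). Emilin1, an elastin interface protein, stood at 35.2 to 86.7 CPM (median 60.9) at day 14 and at 129 to 252 CPM (median 215) at day 3 (log2 change -1.79 ± 0.33). The groups lay apart in both genes.

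Of 14 tested genes of resting fibroblasts 7 rose and none fell (median 0.83), against 9.41% of all features, and 6 or 7 rose as single libraries were left out. Scara5, a ferritin receptor of adventitial fibroblasts, stood at 151, 180.2 and 335 CPM at day 14, against 30.6, 54.2 and 98.6 CPM at day 3 (log2 change 1.85 ± 0.38, edgeR adjusted p = 0.00246). Clec3b (tetranectin) had 329.8 to 506 CPM at day 14 and 146 to 202 CPM at day 3, and Gsn, the actin-severing protein gelsolin, had 4108 to 6506 CPM and 687 to 1761 CPM on those days. None of the day 14 libraries overlapped day 3 in these 3 genes. C3 was called with all libraries (log2 change 0.88 ± 0.28) but had an edgeR adjusted p of 0.093 without day 14 replicate 1.

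The lubricin gene Prg4 of the synovial lining did not pass, although its groups did not overlap. It stood at 32.00, 74.6 and 137 CPM at day 14, against 184, 207 and 259.6 CPM at day 3 (log2 change -1.56 ± 0.70, edgeR adjusted p = 0.124), and passed in an edgeR fit of the 12 injured bursae alone (adjusted p = 0.00268). Pdpn of the lining was likewise lower without overlap and not called, with 56.8 to 87.1 CPM at day 14 and 104 to 167 CPM at day 3. Cd55 and Clic5 of the lining rose, and of 11 lining genes 4 rose and 1 fell. DESeq2 called 4 higher and 3 lower, and the fit of the 12 injured bursae alone 4 and 4. Only 2 rose without any one of day 14 replicates 2, 3 and 5 or of day 3 replicates 2 to 6. Has2, a hyaluronan synthase, had 13.1 to 26.7 CPM at day 14 and 30.5 to 78.4 CPM at day 3 (log2 change -1.31 ± 0.43, edgeR adjusted p = 0.0412), and the call was lost in 10 of the 12 fits that left out a library.

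Of 20 lysosome genes 13 fell and none rose (median -0.45, 11 to 13 as single libraries were left out), against 12.2% of all features. Ctsd, the protease cathepsin D, stood at 415, 454 and 605 CPM at day 14, against 781, 909 and 958 CPM at day 3 (log2 change -0.86 ± 0.24, edgeR adjusted p = 0.0161). Hmox1, which breaks down haem, stood at 53.1, 63.5 and 88.3 CPM at day 14, against 243, 384 and 596 CPM at day 3 (log2 change -2.51 ± 0.23). The groups did not overlap in either gene. The ferritin chains Fth1 and Ftl1 had log2 changes of -0.55 ± 0.12 and -0.81 ± 0.11, and 5 of 10 haem and iron genes fell in all.

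Cd68, a pan-macrophage protein of lysosomes, had 74.6 to 125 CPM at day 14 and 174 to 202 CPM at day 3 (log2 change -0.96 ± 0.15). Of 12 tested resident macrophage genes Stab1 and Vsig4 fell and none rose (median -0.0091), near the 12.2% of all features that were lower. Only 1 fell without any one of day 14 replicates 1, 4, 5 and 6 or day 3 replicates 1 to 4 and 6. In the fit of the 12 injured bursae alone 5 fell and 1 rose, and DESeq2 called 2 lower and 1 higher. The count of this list thus depends on the fit. In the main fit Cd163, Mrc1, Folr2 and Lyve1 were among those not called. Vsig4, a complement receptor of these cells, had the list's lowest change (-4.27 ± 0.60, log2). It had 0, 0.291 and 0.550 CPM at day 14, against 1.92, 4.14 and 10.2 CPM at day 3. C1qa, C1qb and C1qc, which macrophages make, had log2 changes of -0.0071, 0.04 and 0.43 and were not called. Of 9 genes of the Spp1 and Trem2 macrophage list 5 fell, and 3 without day 14 replicate 6. Trem2, a lipid receptor, stood at 11.2 to 22.03 CPM at day 14 and 29.4 to 56.4 CPM at day 3, and had an edgeR adjusted p of 0.052 without that library.

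Of 15 cholesterol synthesis genes 9 fell and none rose (median -0.42, 7 to 9 as single libraries were left out), against 12.2% of all features. Sqle, an oxygenase of sterol synthesis, had 6.60 to 8.28 CPM at day 14 and 11.2 to 24.2 CPM at day 3 (log2 change -1.01 ± 0.18, edgeR adjusted p = 0.00103). Each day 14 library lay below each day 3 library.

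Every tested cytotoxic lymphocyte gene rose: 10 of 10, with a median of 2.39, also when any single library was left out. Without day 14 replicate 6 and day 3 replicate 5 together, 9 of 10 rose and Klrk1 did not pass (0.84, edgeR adjusted p = 0.079). Ccl5, a chemokine of cytotoxic lymphocytes, had 4.55 to 10.2 CPM at day 14, against 0.190 to 0.727 CPM at day 3 (log2 change 3.88 ± 0.32, edgeR adjusted p = 1.87e-06). Prf1 (perforin) stood at 5.19, 9.22 and 14.6 CPM at day 14 and at 1.14, 1.68 and 2.73 CPM at day 3 (log2 change 2.43 ± 0.32). The day 14 libraries were all above the day 3 libraries in both genes. Nkg7, a granule protein, had 2.81 to 9.02 CPM at day 14 and 0.312 to 1.24 CPM at day 3. Eomes, a transcription factor of these cells, had 1.01 to 2.29 CPM at day 14 and 0.0475 to 0.208 CPM at day 3.

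T cell genes did not move as one. Of 17 tested, 6 rose and 3 fell. Only 2 rose without day 14 replicate 1, day 14 replicate 6 or day 3 replicate 1, and 3 without day 3 replicate 2 or 4. Cd8b, a chain of the CD8 co-receptor, stood at 1.11, 1.56 and 1.86 CPM at day 14, against 4.88, 6.42 and 9.56 CPM at day 3, and fell without overlap (log2 change -2.12 ± 0.22, edgeR adjusted p = 1.19e-05). Cd27, a costimulatory receptor, had 1.11 to 2.90 CPM at day 14 and 0.131 to 0.507 CPM at day 3 (log2 change 2.30 ± 0.35). Cd4 had a log2 change of -0.18 and was not called.

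Among 12 tested chemokine receptors 5 rose and 2 fell, against 9.41% of all features higher and 12.2% lower. Cxcr6, a homing receptor of memory and innate lymphocytes, stood at 1.07 to 2.12 CPM (median 1.57) at day 14, against 0.169 to 0.935 CPM (median 0.288) at day 3 (log2 change 1.88 ± 0.45). Cx3cr1, the fractalkine receptor of monocytes, fell (log2 change -2.49 ± 0.50), and its lowest day 3 value, 2.54 CPM, was in replicate 5. Cxcr4 fell too (log2 change -1.26 ± 0.24). Of 17 genes of IL-1, IL-6 and TNF signalling, Il6, Osm, Socs3 and Tnfrsf1a fell and Il11ra1 rose. Osm, a cytokine of the IL-6 family, had 0.593 to 1.91 CPM at day 14 and 1.92 to 3.54 CPM at day 3, and Socs3, a feedback inhibitor, had 5.62 to 12.8 CPM and 15.9 to 31.1 CPM on those days. Il11ra1 was not called without any one of day 14 replicates 4 and 5 and day 3 replicates 1 and 4. Of 6 tested neutrophil genes 4 fell, among them S100a8 (0.0529 to 0.675 CPM at day 14, 0.831 to 1.13 CPM at day 3), and the decoy receptor Il1r2 rose (log2 change 2.27 ± 0.44). Among unmatched members of that list the authors' deposited table gives 0.94 ± 0.19 for the chemokine receptor Cxcr2 (adjusted p = 8.60e-06) and 0.61 ± 0.25 for Mpo, myeloperoxidase (adjusted p = 0.0434), and no other one has an adjusted p under 0.05 there.

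**Figure D3:**
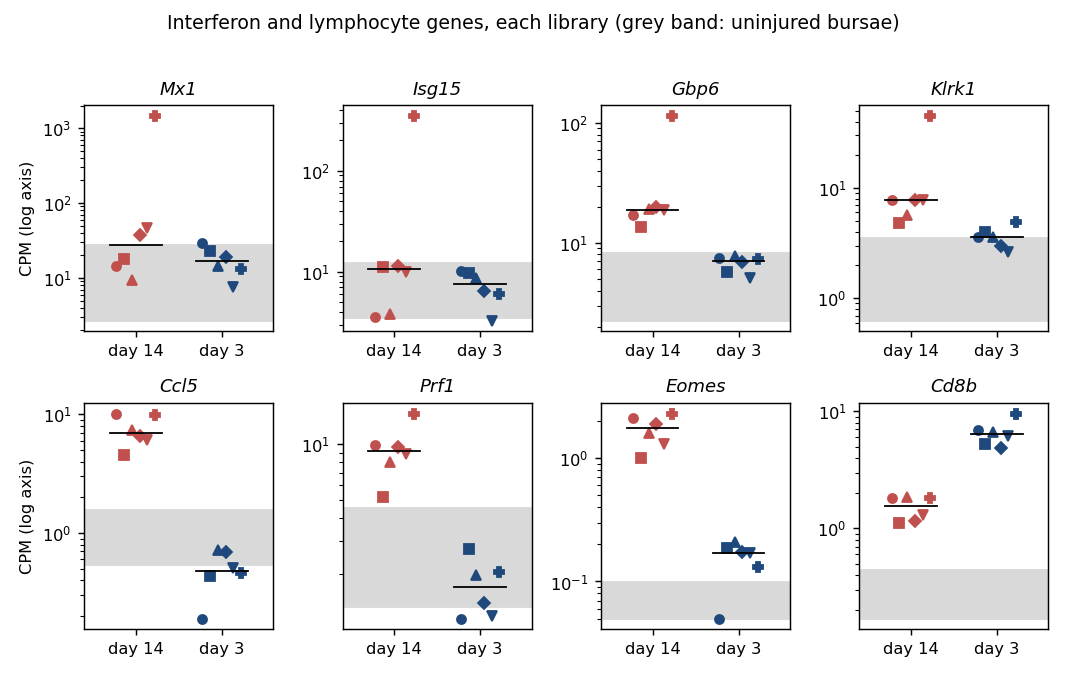
Level in CPM (log axis) of the interferon genes Mx1, Isg15 and Gbp6 and the lymphocyte genes Klrk1, Ccl5, Prf1, Eomes and Cd8b, one panel per gene, with one point per library for day 14 and day 3 injured bursa and values of 0 drawn at 0.05. The black bar is the group median and the grey band the range of the uninjured bursae. In Isg15 1 day 14 library lies at 352, and the other 5 lie at 3.55 to 11.5.

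The interferon genes were high in 1 library. Of 23 tested genes of the type I interferon response 7 rose (median 1.66), but 1 rose without day 14 replicate 6, and 1 to 3 rose without any one day 3 library. DESeq2 called 0 of the 23, which cannot be read as no difference, because DESeq2 can leave a gene without a p-value. The authors' deposited DESeq2 table gives fold changes but no p-value for Mx2, Oas1a, Oas2, Xaf1 and Zbp1, unmatched members of this list. The summed level of the list was 7756 CPM in day 14 replicate 6, 582 to 928 CPM in the other 5 day 14 libraries and 558 to 887 CPM at day 3. Isg15, a ubiquitin-like protein, had a log2 change of 3.14 ± 1.02, and of 0.12 without that library (edgeR adjusted p = 0.869). To show the element, the interferon-stimulated response element (ISRE, written as GAAA, any 2 bases, then GAAA) was searched on both strands in the same windows. It was in 15 of 21 promoters of the list (71.4%), in 3.77% of all, in 4 of 15 lysosome promoters (26.7%), and in 0 of the promoters of the mitosis, DNA replication, cholesterol synthesis and collagen chain lists. Irf7 (chr1:205799974-205800273, minus strand), the interferon regulatory factor of the amplifying loop, holds 1 match, on the other strand, shown in capitals.
Irf7: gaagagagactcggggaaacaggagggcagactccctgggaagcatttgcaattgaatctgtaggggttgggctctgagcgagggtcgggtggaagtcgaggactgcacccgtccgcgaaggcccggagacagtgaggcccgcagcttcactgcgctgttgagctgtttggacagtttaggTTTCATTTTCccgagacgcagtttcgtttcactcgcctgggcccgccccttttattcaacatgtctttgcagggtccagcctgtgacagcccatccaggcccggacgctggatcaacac

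Growth factor genes changed by member. Of 17 genes of the PDGF, FGF and VEGF list 7 rose and Fgf7 and Vegfd fell; 1 fell when any library but day 3 replicate 1 was left out. Fgf10, which acts on epithelium and fat precursors, stood at 25.1, 26.4 and 45.2 CPM at day 14, against 5.89, 11.6 and 17.9 CPM at day 3 (log2 change 1.37 ± 0.26, edgeR adjusted p = 0.00147). Fgf18 had 4.18 to 8.12 CPM at day 14 and 2.09 to 3.19 CPM at day 3. Both lay higher at day 14 without overlap. Of 11 genes of the insulin-like growth factor list 4 rose. Igfbp3, a carrier of IGF, stood at 136 to 356 CPM (median 208) at day 14, against 55.5 to 112 CPM (median 85.9) at day 3 (log2 change 1.44 ± 0.25), and Igfbp5 at 3315 to 5789.7 CPM (median 4424) and 852 to 1516 CPM (median 1109.8) on those days. For Igf1 the authors' deposited table gives -0.18 ± 0.17 (adjusted p = 0.415).

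Of 24 Wnt genes 5 rose, and Sfrp1 and Wnt2b fell (1 fell without day 3 replicate 5). Over all features 9.41% were higher and 12.2% lower. Wnt10b, a ligand that restrains fat formation, stood at 0.633, 1.13 and 2.41 CPM at day 14, against 0.113, 0.216 and 0.558 CPM at day 3 (log2 change 2.30 ± 0.56, edgeR adjusted p = 0.00762). Wnt2b had 0.0789 to 0.465 CPM at day 14 and 0.522 to 1.31 CPM at day 3. The ligand Bmp7 had 1.90 to 3.65 CPM at day 14 and 0.190 to 0.779 CPM at day 3 (log2 change 2.76 ± 0.36). None of these 3 genes overlapped between days.

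Part of the genes of fat, nerve and blood rose. Of 23 white adipocyte genes 9 rose and Mogat2 fell (median 0.93, 7 to 10 rose as single libraries were left out; Mogat2 was not called without day 14 replicate 5 or 6 or day 3 replicate 3 or 4). Plin1, the coat protein of lipid droplets, stood at 796, 1072 and 1224 CPM at day 14, against 302, 518 and 746 CPM at day 3 and 1361 to 2325 CPM in uninjured bursa. Of 17 Schwann cell genes 9 rose (median 0.78) and Erbb3 fell, which was not called without any one of day 14 replicates 3, 4 and 5 or day 3 replicates 1, 2, 3 and 6. Sox10, their defining transcription factor, had 6.78 to 11.1 CPM at day 14 and 3.13 to 6.81 CPM at day 3 (log2 change 0.89 ± 0.17, edgeR adjusted p = 0.00158), with a narrow overlap. Of 6 red cell genes 4 rose (median 1.28). The summed level of the white adipocyte list was 14553 to 23181 CPM at day 14 and 4638 to 14508 CPM at day 3, and that of the Schwann cell list was 888 to 1113.5 CPM at day 14 and 527 to 768 CPM at day 3. The part of these tissues in the other results was not tested.

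Of 18 endothelial genes 6 fell and none rose (median -0.19), while 3 of 8 lymphatic genes rose. DESeq2 also called 2 lymphatic genes lower, and edgeR 1 without day 14 replicate 5, day 3 replicate 1 or day 3 replicate 5. Pdpn, on the lymphatic list as well as the lining list and not called, had 56.8 to 87.1 CPM at day 14 and 104 to 167 CPM at day 3. Aplnr, the apelin receptor of growing vessels, stood at 59.7, 79.1 and 109 CPM at day 14, against 143, 204 and 269 CPM at day 3 (log2 change -1.29 ± 0.24). Prox1, which defines lymphatic endothelium, had 2.86 to 6.86 CPM at day 14 and 2.03 to 2.73 CPM at day 3 (log2 change 1.08 ± 0.24). Neither overlapped between days. Of 10 adult muscle genes 0 passed edgeR's test, 1 (Myl2) had an unadjusted p under 0.05, and DESeq2 called 1, as did edgeR without day 3 replicate 2 or 5. Their summed level was 1544 to 10211 CPM at day 14 and 6.16 to 8184 CPM at day 3. In the embryonic muscle list 3 of 10 fell, and the list's sum was 812 CPM in day 3 replicate 1 and 321 CPM in day 3 replicate 5, against 31.2 to 74.5 CPM in the other 10 libraries. Without day 3 replicate 2 the count was 5.

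Of 17 glucocorticoid-responsive genes 6 rose (median 0.84, 4 to 8 as single libraries were left out) and Mt2A fell. Over all features 9.41% were higher and 12.2% lower. As single libraries were left out the count of falling genes was 2 without day 14 replicate 6, 1 without day 3 replicate 4 and 0 otherwise. Zbtb16, a zinc finger factor, stood at 12.9, 32.6 and 88.4 CPM at day 14, against 1.45, 3.26 and 5.24 CPM at day 3 (log2 change 3.74 ± 0.50, edgeR adjusted p = 9.44e-05). Sult1a1, a sulfotransferase, had 106 to 146 CPM at day 14 and 14.5 to 65.4 CPM at day 3. Of 14 clock genes 4 rose and Nfil3 fell, against the same shares of all features. Nr1d1 (REV-ERB alpha) had 116 to 199 CPM at day 14 and 28.9 to 62.1 CPM at day 3 (log2 change 1.78 ± 0.18). The hour of collection is not given in the labels.

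By the size of the difference in mean CPM, which depends on transcript length, the 10 called genes that gained most were Gsn, Ca3, Igfbp5, Lpl, C4b, Pck1, LOC103689965, Aoc3, Fndc1 and B2m. Lpl, the lipase of fat and muscle, averaged 3065 ± 593 CPM at day 14 and 1434 ± 470.2 CPM at day 3 (SD, n = 6 each). C4b, a complement component, averaged 2446 ± 518 CPM at day 14 and 1145 ± 287 CPM at day 3. B2m had 3332 CPM in day 14 replicate 6, which stood apart in the interferon genes. It had 1278 to 1941 CPM in the other day 14 libraries and 1201 to 1433 CPM at day 3, with overlapping groups. Of 16 genes of its MHC class I and interferon gamma list 2 rose, and 1 without that replicate. The 10 called genes that lost most were Ctsb, Apoe, Serpinh1, Lyz2, Vim, P4hb, Ftl1, Tgfbi, Fth1 and Gpnmb. Ctsb, a lysosomal protease, averaged 1553 ± 212 CPM at day 14 and 3018 ± 209.9 CPM at day 3, and Vim, an intermediate filament of mesenchymal cells, averaged 1674 ± 181 CPM at day 14 and 2556 ± 449 CPM at day 3.

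To ask where the bursa's change differed from that of the tendon below it, the day 14 over day 3 change in bursa minus that in tendon of shoulders with the bursa kept was tested over 24 libraries. Of 16562 features 4072 (24.6%) passed, 1639 (9.9%) with a positive and 2433 (14.7%) with a negative difference. Of 13 members of the collagen chain list 10 had a negative difference, with a median change of -0.25 in bursa and 1.20 in tendon. Col1a1 averaged 15651 ± 3710.2 CPM at day 14 and 20666 ± 5882 CPM at day 3 in bursa, and 44673 ± 7454 CPM at day 14 and 25654 ± 4724 CPM at day 3 in tendon (SD, n = 6 each). The difference of the changes was -1.20 ± 0.26 on the log2 scale (edgeR adjusted p = 0.00168). Of 18 procollagen folding genes 14 had a negative difference (median -0.57 in bursa and 0.02 in tendon). Postn, a matrix protein of activated fibroblasts, changed by -0.01 in bursa, uncalled, and by 2.01 ± 0.21 in tendon (difference -2.02 ± 0.28).

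Mitosis genes fell in both tissues, and 15 of 19 had a negative difference (median -2.87 in bursa and -1.95 in tendon). The count was 11 in a fit with same-numbered libraries as blocks. Plk1 changed by -3.35 in bursa and -2.43 in tendon (difference -0.92 ± 0.31, edgeR adjusted p = 0.0326). Of 10 cytotoxic genes 9 had a positive difference (median 2.39 in bursa and -0.02 in tendon). Prf1 averaged 9.83 ± 3.28 CPM at day 14 and 1.82 ± 0.656 CPM at day 3 in bursa, and 0.863 ± 0.178 CPM at day 14 and 0.989 ± 0.414 CPM at day 3 in tendon (difference 2.63 ± 0.41, edgeR adjusted p = 9.47e-05). Of 23 white adipocyte genes 13 had a positive difference. Plin1 changed by 0.94 in bursa and -2.12 in tendon (difference 3.05 ± 0.73).

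**Figure D4:**
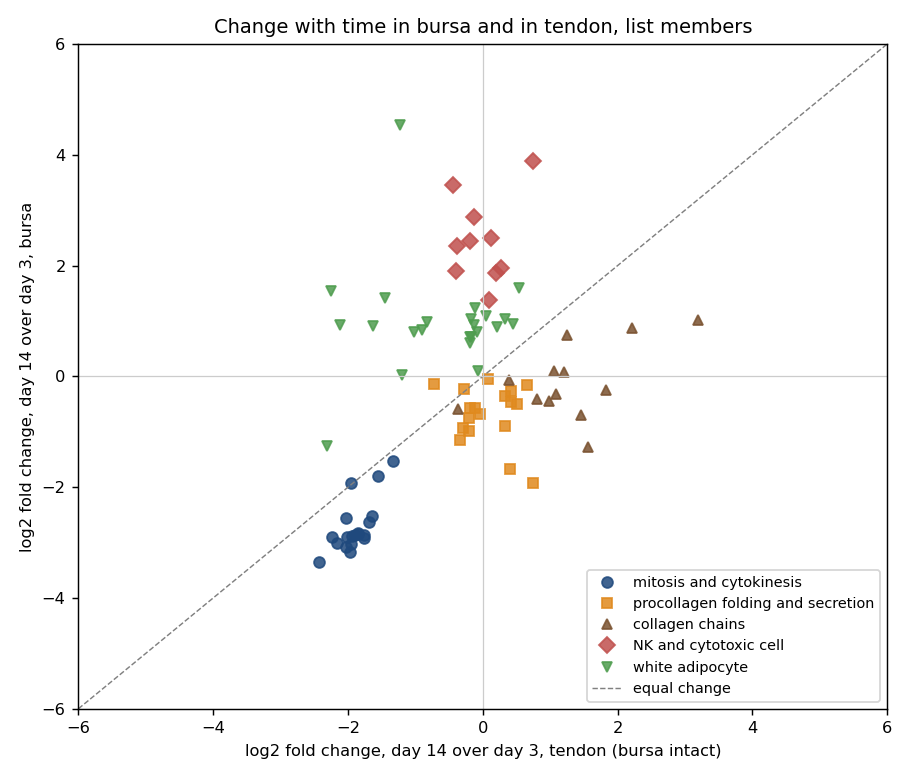
Log2 change of day 14 over day 3 in bursa (vertical axis) against that in tendon with the bursa kept (horizontal axis) for members of 5 gene lists, one point per gene, with a dashed line at equal change. Cytotoxic genes lie high on the vertical axis near 0 on the horizontal (medians 2.39 and -0.02), and collagen chains lie mostly to the right of 0 (medians -0.25 and 1.20).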

How the data were processed

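Polyadenylated RNA of rat bursa and supraspinatus tendon was sequenced, per the labels' protocols. The authors deposited 1 table of estimated counts per transcript for 46 libraries, made with kallisto 0.44.0 after bcl2fastq 2.19, per the submitters' processing notes; no genome build is named there. They also deposited 11 tables of DESeq2 comparisons (version not given) that hold, per the file headers, a mean normalised signal, log2 fold changes with standard errors, a test score, and p-values with adjusted p-values.

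The transcript table carries no symbols. Each symbol was assigned by matching the deposited mean signals of the 11 tables to transcript values, which named 13873 of 23747 symbols and a mean of 90.6% of counts; the same search on decoys gave 57 matches (0.411%). A wrong match would put a gene's name on other values. The deposited day 14 against day 3 log2 fold changes correlated with those computed here at r = 0.9996 across 12901 genes, which are not independent.

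Estimated counts were rounded, summed per symbol, filtered with filterByExpr, scaled by TMM and tested with edgeR 4.0.16 (R 4.3.3; quasi-likelihood, robust) in a fit of the 17 bursa libraries, and of 24 bursa and tendon libraries for the difference of changes. P-values were adjusted by the Benjamini-Hochberg method over all features, with 0.05 as threshold. The mitochondrial share was compared with a two-sided exact permutation test, whose smallest possible p is 0.00216. Library totals of 12.5 to 69.9 M counts limit the precision of low genes.

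The rule for named genes took the 15 highest and 15 lowest fold changes among called symbols with non-overlapping groups and a mean of at least 10 CPM, the 10 largest gains and losses in mean CPM among called symbols, members of 67 gene lists, and the 10 highest and 10 lowest differences from tendon. The members and lists were chosen with earlier results of these data known, and list members were picked for the text after their values were seen. On simulated data with 16190 features the bursa fit recovered 69 of 100 genes changed 2-fold and 89 of 100 changed 4-fold, with 14 false calls. Alternatives were RLE scaling, DESeq2 1.42.0, other filters, thinned libraries, a replicate block and leaving out libraries.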

Additional observations from a re-analysis of the deposited data

Results flagged for a closer look

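Of 302 groups of 6 libraries tested over the named genes, 29 held a library whose gap to its nearest neighbour exceeded Dixon's 95% critical value for that group size on log2(CPM + 0.5). Chance flags about 1 in 20 groups.

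Day 3 replicate 5 was the lowest of its group with 10.9 CPM in Ccna2 (others 23.7 to 31.6), 38.0 CPM in Top2a (others 78.1 to 100.4), 17.6 CPM in Cenpe (others 34.8 to 46.2) and 14.0 CPM in Kif11 (others 26.9 to 34.7). It further had 3.10 CPM in Cenpa (others 7.66 to 11.1), 129 CPM in Emilin1 (others 196 to 252), 82.8 CPM in Mmp19 (others 132 to 149) and 115 CPM in Timp1 (others 186 to 221). It also had 25.1 CPM in Adamts4 (others 64.7 to 79.9) and 2.54 CPM in Cx3cr1 (others 9.63 to 18.5). Day 3 replicate 5 was the highest of its group with 95.0 CPM in Klf9 (others 33.3 to 46.2). Day 14 replicate 4 was the highest of its group with 17.5 CPM in Top2a (others 7.73 to 9.30), 9.89 CPM in Cenpf (others 4.35 to 5.03), 28.7 CPM in Mki67 (others 13.1 to 17.2) and 5.62 CPM in Kif22 (others 2.96 to 3.59). It further had 15.2 CPM in Prc1 (others 7.37 to 7.95) and 2.45 CPM in Plk1 (others 1.38 to 1.70). Day 14 replicate 6 was the lowest of its group with 6.50 CPM in Adamts16 (others 13.05 to 16.9) and 11.2 CPM in Trem2 (others 17.9 to 22.03). Day 14 replicate 6 was the highest of its group with 115 CPM in Gbp6 (others 13.6 to 19.9), 45.1 CPM in Klrk1 (others 4.82 to 7.87) and 352 CPM in Isg15 (others 3.55 to 11.5).

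Smpd3 was lowest in day 3 replicate 1, at 7.70 CPM, with the others of its group at 14.3 to 19.7 CPM. Ftl1 was highest in day 3 replicate 4, at 1704 CPM, with the others of its group at 1086 to 1251 CPM. E2f8 was highest in day 3 replicate 1, at 9.46 CPM, with the others of its group at 2.98 to 4.41 CPM. Timp1 was lowest in day 14 replicate 5, at 33.0 CPM, with the others of its group at 44.3 to 51.6 CPM. Fabp5 was highest in day 14 replicate 1, at 49.4 CPM, with the others of its group at 31.4 to 37.2 CPM. Tubb6 was highest in day 3 replicate 1, at 316 CPM, with the others of its group at 97.6 to 127 CPM. Cd8a was highest in day 3 replicate 6, at 12.8 CPM, with the others of its group at 7.02 to 8.46 CPM.

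The change of day 14 over day 3 in bursa minus that in tendon with the bursa kept differed by edgeR's interaction test in 20 genes named by rule. On the log2 scale the difference was 6.46 for LOC100911615, 5.77 for Scd, 4.60 for Cxcl10, 4.57 for Mx1, 4.46 for Cyp2e1, 3.88 for Fcnb, 3.79 for Pck1, 3.56 for Irf7, 3.50 for Ccr1 and 3.38 for Pla2g2a. It was -4.30 for Prss35, -4.02 for Plekhg4, -4.01 for Alpl, -3.69 for Cemip, -3.55 for Pamr1, -3.18 for Capn6, -2.97 for Cpxm1, -2.83 for Col12a1, -2.75 for Ptprv and -2.74 for Lrrc15. These are not the bursa's own changes. In bursa Scd, Mx1, Pck1, Irf7, Ccr1 and Pamr1 were called higher, Prss35 and Ptprv lower, and the others were not called. Pamr1 rose in bursa (log2 change 2.57 ± 0.55) despite its negative difference. The uncalled Fcnb and Alpl changed by -0.88 and 0.52 in bursa. Without day 14 bursa replicate 6, Mx1, Irf7, Cxcl10 and Fcnb did not pass the interaction test. LOC100911615 did not pass without tendon day 3 replicate 2, and Cyp2e1 did not pass without tendon day 3 replicate 1 or tendon day 14 replicate 6. Cxcl10 also did not pass without bursa day 3 replicate 3, tendon day 14 replicate 1 or 2, or tendon day 3 replicate 1 or 2.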

How the results depend on the processing

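The main comparison gave 1544 higher and 2006 lower features. RLE scaling gave 1568 and 2022, no filter 1338 and 1776, DESeq2 1961 and 2457, the 12 injured bursae alone 2258 and 2721, and leaving out single libraries 1060 to 1597 higher and 1549 to 2086 lower. The difference from tendon gave 1377 to 1877 higher and 2180 to 2669 lower as single libraries were left out, and 2041 and 2416 by DESeq2. No count of called features over all genes moved by more than 1.5 times under the alternatives run. The difference in mitochondrial share (-1.06 percentage points) was -2.28 to 1.22 as single libraries were left out, with 0.0207 without day 14 replicate 4 and 1.22 without day 3 replicate 5, both of the opposite sign. Isg15 had -0.034 on the log2 scale with day 14 replicate 6 and day 3 replicate 5 left out, a setting chosen after seeing the data. DESeq2 called 9 T cell genes higher where edgeR called 6, and the 12 injured bursae alone gave 9 Wnt genes higher and 4 lower, 5 genes of the PDGF, FGF and VEGF list lower and 4 metalloproteinases lower. Of 147 called named genes 126 were called in each fit that left out 1 of the 12 libraries and 21 were not.

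Same-numbered day 14 and day 3 bursae correlated at -0.18 to 0.16 in their deviations from the group means, and 1 of 6 correlated best with its own number, so the numbers do not pair them. A fit with the replicate block gave 1880 higher and 2347 lower features. Under this block 3 lining genes were called higher and 4 lower, 5 protease inhibitors higher and 3 lower, 1 collagen chain higher and 2 lower, and 1 trimming and crosslinking enzyme lower. For bursa and tendon the correlations were 0.03 to 0.18 at day 14 and 0.13 to 0.20 at day 3. The rule for pairing, over 0.1 in each pair, was thus met at day 3 and missed at day 14. Each bursa but day 14 replicates 4 and 6 and day 3 replicate 5 correlated best with the tendon of its own number. Whether these share a rat is not given in the labels. The block gave 1595 higher and 2340 lower features. With it 11 of 19 mitosis genes had a negative difference (15 without). For 8 of 10 cytotoxic genes it was positive (9 without). The collagen chain, folding and white adipocyte counts stayed at 10, 14 and 13. Under this block LOC100911615, Cxcl10 and Cyp2e1 did not pass (edgeR adjusted p = 0.119, 0.0734 and 0.166), 3 of the 20 genes named for the difference from tendon. Genes near 0 CPM at the depth of these libraries have few counts, and their fold changes are the least certain.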

Other observations

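Of 18 tested immediate early genes 3 rose and 3 fell, against 9.41% of all features higher and 12.2% lower. Fosl1, a member of the AP-1 family, had 0.0846 to 0.371 CPM at day 14 and 0.682 to 2.90 CPM at day 3 (log2 change -2.89 ± 0.54, edgeR adjusted p = 0.00139), and Junb of the same family fell too (log2 change -0.81 ± 0.22). Klf4, a zinc finger factor, rose (log2 change 1.06 ± 0.13), while Fos and Jun had log2 changes of 0.21 and 0.18 and were not called.

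Of 14 genes of the hypoxia list 2 rose and 3 fell, against 9.41% of all features higher and 12.2% lower. Ca9, a carbonic anhydrase induced by low oxygen, had 0.158 to 1.16 CPM at day 14 and 1.31 to 3.58 CPM at day 3 (log2 change -1.86 ± 0.61), and Bnip3, a mitophagy receptor, was higher at day 14 (log2 change 1.02 ± 0.20). Of 16 genes of the unfolded protein response list 1 rose and 7 fell. Only 3 or 4 fell without any one of day 14 replicates 3 to 5 or day 3 replicates 1 to 4. Ddit3 (CHOP), a factor of the stress response, rose with a log2 change of 1.30 ± 0.18. The protein folding enzymes Pdia4 and Pdia6 fell (log2 changes -0.60 ± 0.19 and -0.66 ± 0.11).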
